A study of Homo sapiens with 9 samples.

Results

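The cytochrome P450 genes were taken from the deposited table as every row whose symbol has the family form CYP, a number, letters and a number, leaving out CYP51A1, the sterol demethylase of cholesterol synthesis. Of 58 matching rows, 2 belonged to CYP51A1 and 1 was a second row of CYP2C18 with fewer counts, which left 55 genes of the 20323 in the table. They were read in HKC-8, an established line of human kidney proximal tubular epithelial cells, in 9 poly(A) RNA libraries that form 3 groups of 3. Cells labelled Wnt1_KP6 received a plasmid coding for Wnt1, a secreted signalling protein, together with KP6, a peptide derived from the kidney protein Klotho. Cells labelled Wnt1 received the Wnt1 plasmid alone, and control cells received the empty vector pcDNA3. All groups are thus transfected cells of 1 line with no untransfected group, and no dose, time or replicate origin is given in the labels. Whether replicates are separate cultures is not given either, and the p-values below therefore reflect a spread between libraries that may be technical.

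Cytochrome P450 enzymes hold a heme group and insert an oxygen atom into lipids, drugs and other small molecules, using electrons that POR or, in mitochondria, the ferredoxin FDX1 passes to them. Some members clear drugs and foreign chemicals, and others make or break down steroid hormones, bile acids, vitamin D, retinoic acid and the fatty acid mediators called eicosanoids. The proximal tubule is known for making and degrading active vitamin D and for oxidising arachidonic acid, whereas most drug-clearing members are best known from liver.

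Library totals ran from 21199078 to 27507623 expected counts, so the floor of 3 counts corresponds to 0.109 to 0.142 CPM (counts scaled to a common library size). WNT1 itself had 1, 2 and 0 counts in the libraries labelled Wnt1_KP6, 0 in each library labelled Wnt1 and 0 in each control library, so its counts do not check the labels, and every direction below rests on them. Replicate 1 stood apart in all groups, at -37.4 to -38.8 on a first principal component that holds 38.1% of the variance, against 9.21 to 25.1 for the other 6 libraries. For P450 genes, results that rest on replicate 1 are given with and without it, whereas list genes other than POR are mostly given as group means. Of 13 proximal tubule markers 2 reached a mean of 1 FPKM (fragments scaled to transcript length and library size), GGT1 and SLC3A1, and the transporters SLC22A6 and SLC22A8 were at 0 in every library. The summed proximal tubule markers were 99.4 to 109 FPKM in libraries labelled Wnt1_KP6, 89.6 to 120 FPKM in those labelled Wnt1 and 102 to 120 FPKM in control libraries. Of 7 kidney epithelium markers 5 reached a mean of 1 FPKM, with PAX8, KRT8 and KRT18 each above 161 FPKM, while PAX2 and CDH1, the E-cadherin gene, were near 0, at most 0.135 and 0.079 FPKM. That list summed to 795 to 838 FPKM in libraries labelled Wnt1_KP6, 759 to 794 FPKM in those labelled Wnt1 and 658 to 766 FPKM in control libraries. No distal nephron, steroidogenic or endothelial marker reached a mean of 1 FPKM, and 1 of 7 hepatocyte markers (SERPINA1) and 1 of 6 fibroblast markers (COL1A1) did. The fibroblast markers summed to 4.61 to 7.01 FPKM in libraries labelled Wnt1_KP6, 3.76 to 5.97 FPKM in those labelled Wnt1 and 4.93 to 11.2 FPKM in control libraries, and their part in the results was not tested.

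HKC-8 cells expressed a small share of the family. A count was present for 41 of the 55 genes, and 14 had none in any library, 25.5% of the family against 16.5% of all genes in the table. After the filter on low counts 21 genes remained for testing, 38.2% of the family against 64.7% of the table. With expression defined as at least 1 FPKM in all 3 libraries of a group, 10 genes were expressed, which is 18.2% of the family against 55.5% of the table. These shares describe the family and were not tested.

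**Figure D1:**
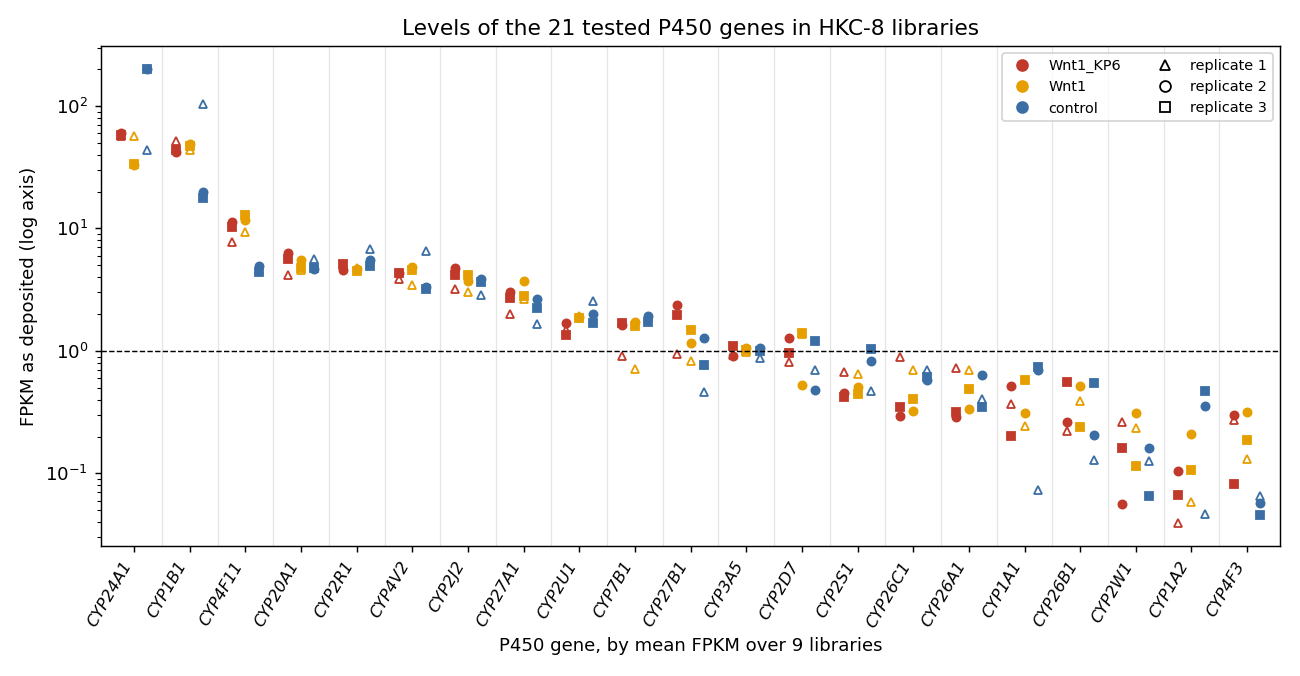
Deposited FPKM (log axis) of the 21 tested P450 genes, ordered along the horizontal axis by mean over 9 libraries, with 1 point per library, colour for the group and shape for the replicate number. CYP24A1 and CYP1B1 lie above the other 19, the summed FPKM of all members but this pair was 33.9 to 44.8 in a library, and the dashed line marks 1 FPKM.

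By role, all 3 vitamin D genes were tested (CYP24A1, CYP27B1 and CYP2R1). Of 4 retinoid genes 3 were tested (CYP26A1, CYP26B1 and CYP26C1), and of 14 fatty acid and eicosanoid genes 5 were (CYP2J2, CYP2U1, CYP4F11, CYP4F3 and CYP4V2). The 20 xenobiotic genes gave 6 (CYP1A1, CYP1A2, CYP1B1, CYP2S1, CYP2W1 and CYP3A5), and the 6 bile acid and oxysterol genes gave 2 (CYP27A1 and CYP7B1). None of the 6 steroid hormone genes was tested: CYP11B1 and CYP11B2, the last enzymes of cortisol and aldosterone synthesis, had no count, and CYP11A1, CYP17A1, CYP19A1 and CYP21A2 had at most 4 in a library. The orphan CYP20A1 and CYP2D7, which GENCODE lists as a polymorphic pseudogene, were also tested.

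The xenobiotic genes that were not tested had few or no counts. CYP3A4, the main drug-oxidising P450 of liver, had no count in any library, which allows up to 3 counts in each, and neither did CYP2A13, CYP2A7, CYP2F1 and CYP3A43. CYP2E1, which oxidises ethanol, had the most counts among the untested genes, at most 13 in a library. CYP2D6, CYP2C8, CYP2C19, CYP2C18, CYP2B6, CYP2A6 and CYP3A7 had at most 5. Of the arachidonic acid hydroxylases known from kidney, CYP4A11 had no count, CYP4F2 at most 2 and CYP4A22 at most 2. CYP4B1, CYP4F22, CYP4F8, CYP4X1, CYP4Z1 and the bile acid gene CYP8B1 had none. CYP4F12, CYP7A1 and CYP39A1 had at most 1 count in a library, CYP27C1 at most 4 and CYP46A1, the cholesterol hydroxylase of brain, at most 7.

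CYP24A1 and CYP1B1 together made up 65.0% to 86.6% of the summed FPKM of the family in a library. CYP24A1 averaged 82.7 FPKM and CYP1B1 46.8 FPKM over 9 libraries, but their ranges overlapped and CYP24A1 was the higher in 6 of 9. CYP1B1 and CYP4F11, next in the order, were the only neighbours whose ranges were apart, with CYP1B1 higher in 9 of 9. CYP20A1, CYP2R1, CYP4V2, CYP2J2, CYP27A1, CYP2U1 and CYP7B1 completed the expressed genes, in that order, and each neighbouring pair overlapped. CYP27B1, CYP3A5 and CYP2D7 lay close to 1 FPKM, and the other tested genes had means under 1 FPKM. Group by group, the summed FPKM of all members was 144 to 147 in libraries labelled Wnt1_KP6, 125 to 138 in those labelled Wnt1 and 185 to 257 in control libraries. Without CYP24A1 and CYP1B1 it was 35.1 to 44.8, 37.0 to 43.8 and 33.9 to 36.8 FPKM in the same order of groups, so the higher control sums lay in that pair.

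Over all 13153 genes, the quasi-likelihood test of edgeR (p-values adjusted by Benjamini-Hochberg, threshold 0.05) called 16 in Wnt1 vs control (0.122%). It called 0 (0%) between the libraries labelled Wnt1_KP6 and those labelled Wnt1, and 30 (0.228%) for Wnt1_KP6 vs control. Among the 21 tested P450 genes it called 1, CYP4F11, higher in libraries labelled Wnt1 than in control libraries. It called 0 for Wnt1_KP6 vs Wnt1, where 0 had an unadjusted p under 0.05 (background 2.76%) and DESeq2 called 0 (background 0.152%). It called 0 for Wnt1_KP6 vs control, where 6 had an unadjusted p under 0.05 (background 15.8%) and DESeq2 called 1, CYP4F11 (background 5.12%). In Wnt1 vs control 3 had an unadjusted p under 0.05 (CYP24A1, CYP4F11 and CYP4F3, background 11.2%), and DESeq2 called CYP4F11 and CYP24A1 (background 2.3%). Median log2 fold changes of the 21 were 0.020 (Wnt1 vs control), 0.015 (Wnt1_KP6 vs Wnt1) and 0.031 (Wnt1_KP6 vs control), beside medians over all tested genes of -0.0034, 0.0011 and -0.0051. The 2 comparisons with control share the control libraries.

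**Figure D2:**
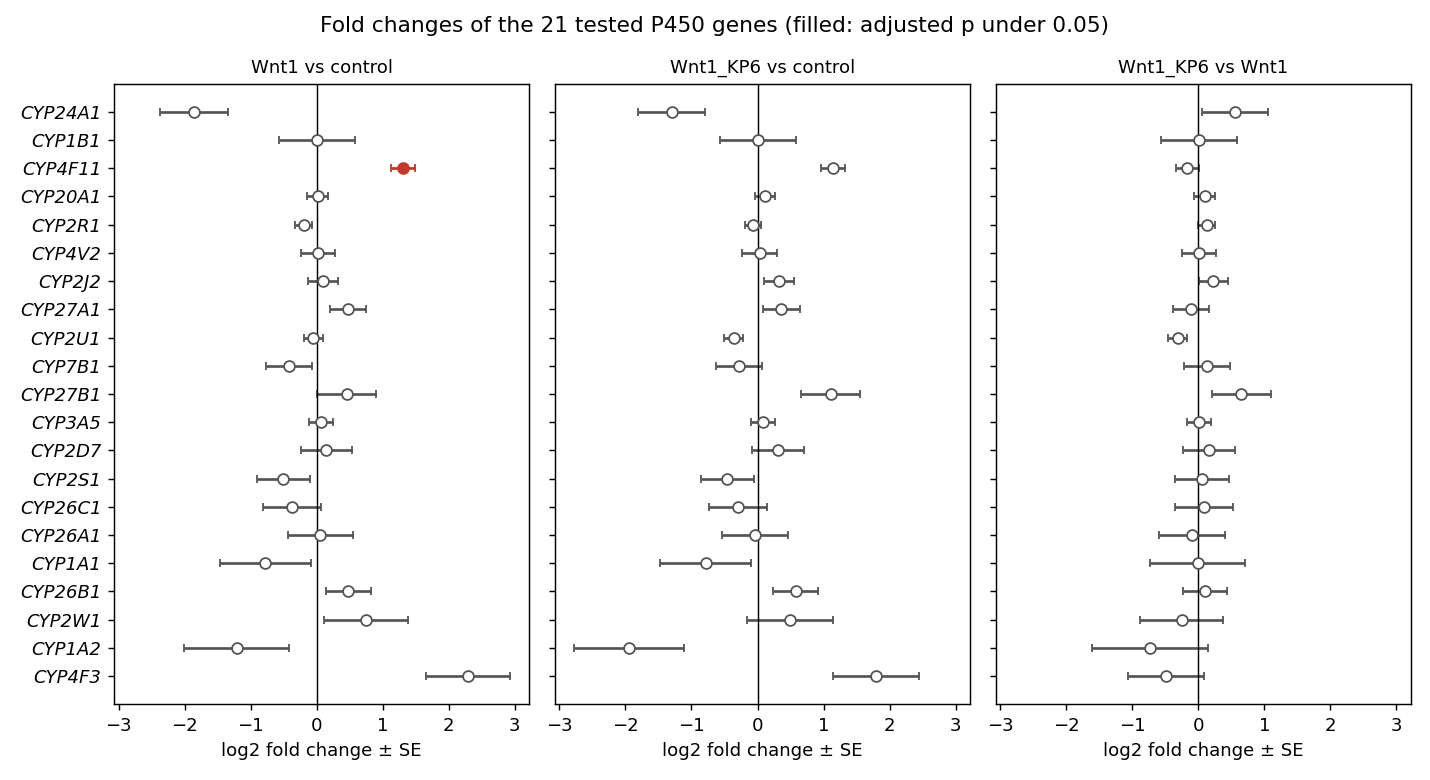
Log2 fold change (horizontal axis, bars are SE) of the 21 tested P450 genes in 3 comparisons, from edgeR on 3 libraries per group, with filled points for an adjusted p under 0.05. CYP4F11 in Wnt1 vs control, at 1.31, is the only filled point. The widest bars in that comparison are those of CYP1A2, CYP1A1, CYP4F3, CYP2W1, CYP1B1 and CYP24A1.

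CYP4F11 encodes an enzyme that hydroxylates the tail end of long-chain fatty acids and of vitamin K. The gene lies on chromosome 19 from 15912367 to 15934867 (hg38, minus strand), with no exon shared with another gene. It had 22.6, 32.4 and 29.7 CPM in the libraries labelled Wnt1_KP6, against 27.3, 34.3 and 37.3 CPM in those labelled Wnt1 and 13.3, 14.6 and 12.9 CPM in control libraries. Every library with the Wnt1 label, with or without KP6, was above every control library. Replicate 1 did not stand apart from its group in the control libraries, but it was the lowest library in both groups with the Wnt1 label. Mean levels were 28.2 ± 5.03, 33.0 ± 5.13 and 13.6 ± 0.864 CPM in these 3 groups (SD, n = 3 each).

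CYP4F11 rose in Wnt1 vs control by a log2 fold change of 1.31 ± 0.18 (SE; adjusted p = 0.0475, edgeR's quasi-likelihood test). In Wnt1_KP6 vs control the value was 1.14 ± 0.18, with an adjusted p of 0.0513 that missed the threshold. With the replicate number as a block that value was 1.12 ± 0.13 with an adjusted p of 0.0140, and DESeq2 gave 1.14 with an adjusted p of 7.68e-06. That block fit called 0.722% of all genes in Wnt1 vs control, 0% for Wnt1_KP6 vs Wnt1 and 1.13% for Wnt1_KP6 vs control. In Wnt1_KP6 vs Wnt1 the gene differed by -0.17 ± 0.18 (adjusted p = 1, edgeR). Within replicates 1, 2 and 3 the difference between the libraries labelled Wnt1 and control was 1.07, 1.27 and 1.53 in log2 CPM, and between those labelled Wnt1_KP6 and control 0.80, 1.26 and 1.29. Without replicate 1 in any group, CYP4F11 gave 1.41 ± 0.0999 in Wnt1 vs control (adjusted p = 1.77e-07, edgeR) and 1.28 ± 0.10 for Wnt1_KP6 vs control (adjusted p = 2.71e-07).

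The call of CYP4F11 in Wnt1 vs control rests near the threshold. Leaving out a single library kept the log2 fold change between 1.20 and 1.44, but the edgeR adjusted p was 0.325 without control replicate 2, 0.185 without control replicate 3, 0.0576 without Wnt1 replicate 1, 0.275 without Wnt1 replicate 2 and 0.316 without Wnt1 replicate 3. It was 0.0817 without Wnt1_KP6 replicate 2 and 0.133 without Wnt1_KP6 replicate 3, libraries that enter this comparison only through the shared estimate of spread. Without control replicate 1 it was 0.0151, and without Wnt1_KP6 replicate 1 it was 0.0146. In Wnt1_KP6 vs control the adjusted p passed without control replicate 1 (0.0204), without Wnt1 replicate 1 (0.0461) and without Wnt1_KP6 replicate 1 (0.00189).

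CYP4F3 encodes the hydroxylase that inactivates leukotrienes, and its gene lies 249541 bases from CYP4F11 on chromosome 19 (15640897 to 15662825, plus strand). Its counts were low, 13, 20 and 4 in the libraries labelled Wnt1_KP6, 13, 24 and 15 in those labelled Wnt1 and 5, 4 and 3 in control libraries. The libraries labelled Wnt1 did not overlap with the control libraries, and 1 library labelled Wnt1_KP6 lay within the control range. The log2 fold change was 2.29 ± 0.64 in Wnt1 vs control (adjusted p = 0.240) and 1.80 ± 0.65 for Wnt1_KP6 vs control (adjusted p = 0.223), both short of the threshold with edgeR. Fitted to replicates 2 and 3 alone, the gene gave 2.68 ± 0.72 for Wnt1 vs control (adjusted p = 0.0118) and 1.96 ± 0.78 for Wnt1_KP6 vs control (adjusted p = 0.0600). CYP4F genes are close relatives, and an estimated count can divide reads between them, so the low CYP4F3 values beside the higher CYP4F11 values are uncertain. The deposited counts of both genes were whole numbers in all 9 libraries, and whether reads were divided or misplaced between them was not tested.

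Promoter windows of CYP4F11 and CYP4F3 are shown because these CYP4F genes were the P450 genes with the largest positive values in Wnt1 vs control. Each window runs from 250 bases before to 50 bases after a transcript start (RefSeq, GRCh38.p14), which gives 300 bases, 5′ to 3′ on the gene's strand. RefSeq lists 2 starts for CYP4F11, numbered here by chromosome position, so on this minus-strand gene the second is the upstream start. In the first CYP4F11 window (chr19:15934480-15934779, minus strand) and the CYP4F3 window (chr19:15641062-15641361, plus strand), capitals mark bases in exact runs of at least 12 bases that the pair share. Runs that overlap are merged, so a stretch of capitals can be longer than any single shared run. In the second CYP4F11 window (chr19:15934818-15935117, minus strand), capitals mark the letters TGACNNNGC read on the opposite strand, the core of the antioxidant response element.
CYP4F11 first start: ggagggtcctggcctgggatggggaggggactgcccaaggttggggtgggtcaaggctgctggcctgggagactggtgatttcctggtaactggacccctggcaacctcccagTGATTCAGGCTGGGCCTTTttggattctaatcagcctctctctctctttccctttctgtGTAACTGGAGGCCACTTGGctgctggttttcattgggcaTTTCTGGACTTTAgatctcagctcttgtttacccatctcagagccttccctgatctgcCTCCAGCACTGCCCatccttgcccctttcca
CYP4F3: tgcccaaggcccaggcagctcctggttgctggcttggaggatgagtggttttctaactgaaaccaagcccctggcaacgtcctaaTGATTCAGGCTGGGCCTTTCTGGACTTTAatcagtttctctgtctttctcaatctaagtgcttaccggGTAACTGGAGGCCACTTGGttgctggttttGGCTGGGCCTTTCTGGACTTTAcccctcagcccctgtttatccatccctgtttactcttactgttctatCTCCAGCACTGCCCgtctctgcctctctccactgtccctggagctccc
CYP4F11 second start: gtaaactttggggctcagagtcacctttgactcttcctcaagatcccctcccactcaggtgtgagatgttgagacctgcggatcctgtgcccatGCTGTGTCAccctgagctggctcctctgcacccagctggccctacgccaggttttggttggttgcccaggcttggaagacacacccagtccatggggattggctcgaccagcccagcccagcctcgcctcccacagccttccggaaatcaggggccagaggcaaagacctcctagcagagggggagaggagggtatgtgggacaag

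The first CYP4F11 window and the CYP4F3 window had identical bases in 205 of 332 aligned columns (61.7%), and their longest shared run was 19 bases. Shared runs covered 65 bases of the CYP4F11 window and 84 bases of the CYP4F3 window. The second CYP4F11 window was 42.8% identical to that of CYP4F3 and shared no run of 12 bases. TGACNNNGC, searched on both strands, occurred in 13.3% of 35116 promoter windows of the same length and in 2 of the 16 tested P450 genes with a window, CYP4F11 and CYP4V2. The share over all windows counts windows, whereas a gene with several windows counts as a match if any of them matches, so the 2 are unlike units. A match describes letters and is not evidence of a bound factor.

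**Figure D3:**
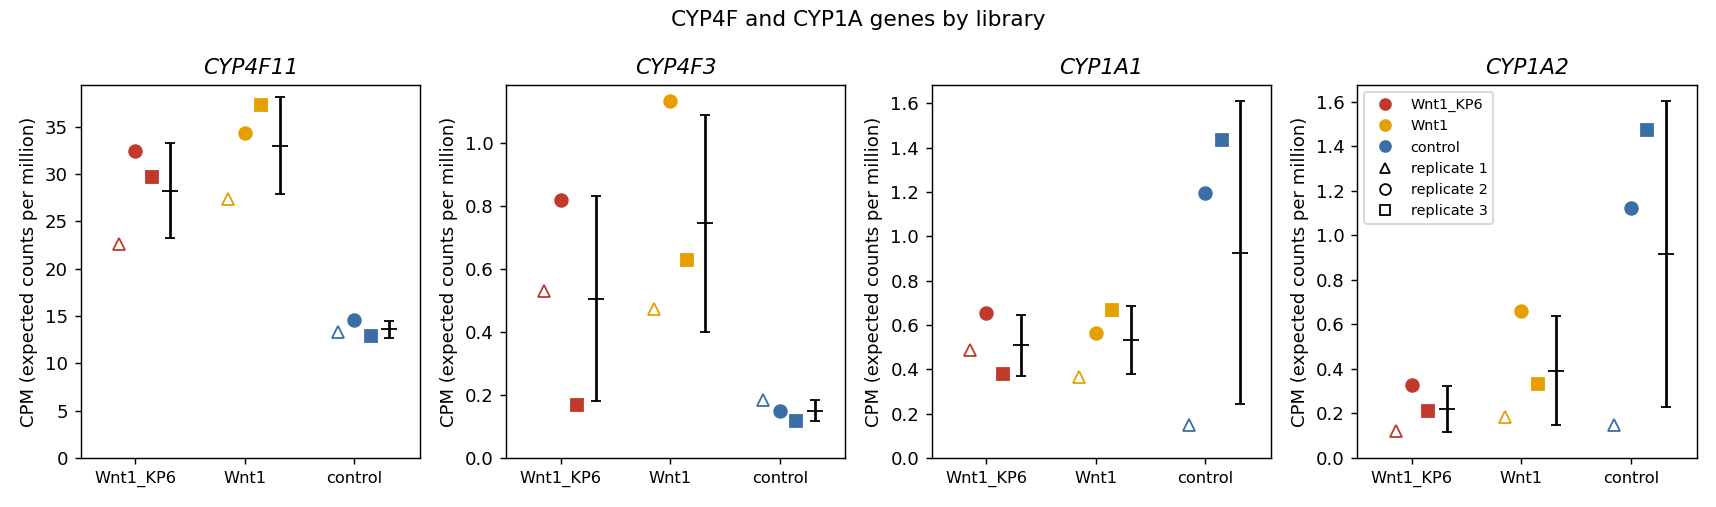
CPM by library for CYP4F11, CYP4F3, CYP1A1 and CYP1A2 in the 3 groups, with 1 point per library (shape for the replicate number) and bars for mean ± SD (n = 3). CYP4F11 in every library labelled Wnt1_KP6 or Wnt1 is above every control library, and for CYP1A1 and CYP1A2 control replicates 2 and 3 are the highest of all libraries while control replicate 1 is among the lowest.

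The other fatty acid P450 genes were not called in the fit to all libraries. CYP4V2, a fatty acid hydroxylase known from an inherited retinal disease, had 3.86, 4.32 and 4.35 FPKM in the libraries labelled Wnt1_KP6, 3.47, 4.85 and 4.59 FPKM in those labelled Wnt1 and 6.51, 3.34 and 3.19 FPKM in control libraries. Control replicate 1 was above all other libraries, and control replicates 2 and 3 were below all others. The fit to all replicates gave 0.020 ± 0.26 in Wnt1 vs control, and replicates 2 and 3 alone gave 0.55 ± 0.097 (edgeR adjusted p = 0.000748) and, for Wnt1_KP6 vs control, 0.51 ± 0.097 (adjusted p = 0.00101). In CYP4V2, 2.05% of exon bases are shared with KLKB1 on the same strand.

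CYP2J2, an arachidonic acid epoxygenase, had 3.23, 4.77 and 4.17 FPKM in the libraries labelled Wnt1_KP6, 3.01, 3.74 and 4.18 FPKM in those labelled Wnt1 and 2.84, 3.84 and 3.68 FPKM in control libraries. The 3 groups overlapped, replicate 1 was the lowest in each, and the log2 fold change was 0.092 ± 0.23 in Wnt1 vs control. CYP2U1, which hydroxylates arachidonic acid, had 1.496, 1.71 and 1.36 FPKM in the libraries labelled Wnt1_KP6, 1.93, 1.91 and 1.84 FPKM in those labelled Wnt1 and 2.53, 1.99 and 1.70 FPKM in control libraries. By CPM, its libraries labelled Wnt1_KP6 did not overlap with either other group and were the lower. The log2 fold change was -0.31 ± 0.15 for Wnt1_KP6 vs Wnt1 (adjusted p = 1) and -0.36 ± 0.14 for Wnt1_KP6 vs control (adjusted p = 0.269), neither past the threshold with edgeR. A further 8.61% of CYP2U1 exon bases lie opposite another gene, and no strand-specific counting is stated.

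CYP24A1 encodes the mitochondrial hydroxylase that degrades active vitamin D and is a classic target of the vitamin D receptor VDR. It lies on chromosome 20 from 54153449 to 54173973 (hg38, minus strand) and shares no exon with another gene. It had 57.3, 60.3 and 57.8 FPKM in the libraries labelled Wnt1_KP6, 56.4, 32.9 and 33.7 FPKM in those labelled Wnt1 and 43.8, 202 and 200.2 FPKM in control libraries. Control replicates 2 and 3 were far above every other library, control replicate 1 was below all 3 libraries labelled Wnt1_KP6, and those 3 were above all libraries labelled Wnt1. In bulk RNA, fewer cells carrying a transcript and less of it per cell cannot be told apart.

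The log2 fold change of CYP24A1 was -1.86 ± 0.51 in Wnt1 vs control (adjusted p = 0.240). It was -1.30 ± 0.51 for Wnt1_KP6 vs control (adjusted p = 0.260) and 0.56 ± 0.50 for Wnt1_KP6 vs Wnt1 (adjusted p = 1), none past the threshold with edgeR. DESeq2 gave an adjusted p of 0.0499 for Wnt1 vs control. Replicate 1 decided these values. Within replicates 1, 2 and 3 the difference between Wnt1 and control was 0.41, -2.55 and -2.60 in log2 CPM, and that between Wnt1_KP6 and control was 0.43, -1.64 and -1.74. Between Wnt1_KP6 and Wnt1 it was 0.023, 0.91 and 0.85. Without control replicate 1, edgeR gave -2.30 ± 0.20 in Wnt1 vs control (adjusted p = 0.000922) and -1.74 ± 0.20 for Wnt1_KP6 vs control (adjusted p = 0.00296). All comparisons passed when replicates 2 and 3 were fitted alone, with -2.57 ± 0.062 in Wnt1 vs control (adjusted p = 3.65e-12). The values were -1.69 ± 0.059 for Wnt1_KP6 vs control (adjusted p = 4.7e-11) and 0.88 ± 0.060 for Wnt1_KP6 vs Wnt1 (adjusted p = 1.34e-07). That fit called 31.6%, 40.6% and 8.62% of all 13041 genes it tested in the same order of comparisons, with 2 libraries in a group.

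**Figure D4:**
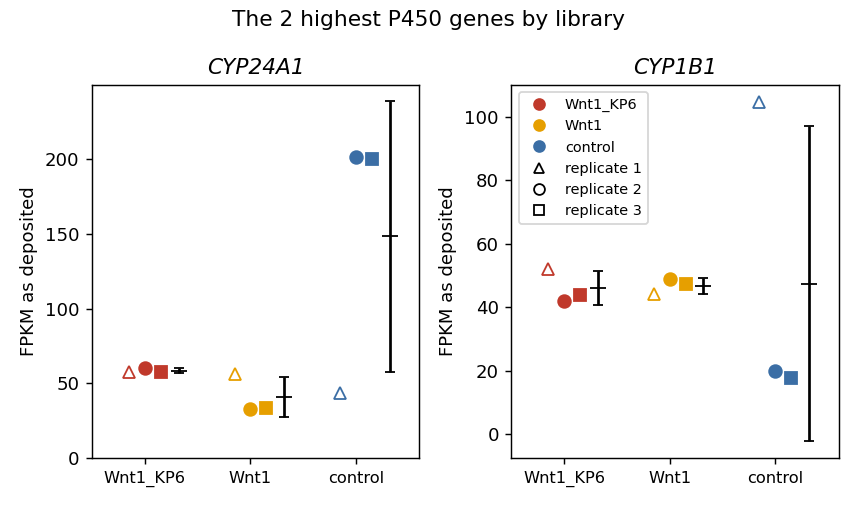
Deposited FPKM by library for CYP24A1 and CYP1B1 in the 3 groups, with 1 point per library (shape for the replicate number) and bars for mean ± SD (n = 3). CYP24A1 is 202 and 200.2 FPKM in control replicates 2 and 3 but 43.8 FPKM in control replicate 1, and CYP1B1 shows the opposite order, 19.9 and 17.8 FPKM against 105 FPKM.

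CYP27B1 encodes the hydroxylase that makes active vitamin D, and proximal tubule cells are its main site in the body. It had 0.941, 2.37 and 1.97 FPKM in the libraries labelled Wnt1_KP6, 0.830, 1.15 and 1.47 FPKM in those labelled Wnt1 and 0.466, 1.27 and 0.767 FPKM in control libraries. Replicate 1 was the lowest in each group and the groups overlapped, while within each replicate number the order was Wnt1_KP6, Wnt1, control by CPM. The log2 fold change was 1.11 ± 0.45 for Wnt1_KP6 vs control (edgeR adjusted p = 0.271), and 1.17 ± 0.22 in replicates 2 and 3 alone (adjusted p = 0.000877). It was 0.46 ± 0.45 in Wnt1 vs control and 0.65 ± 0.44 for Wnt1_KP6 vs Wnt1, not past the threshold. With METTL1 the gene shares 3.11% of its exon bases on the same strand.

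CYP2R1, which makes the circulating form of vitamin D, had 5.06, 4.58 and 5.17 FPKM in the libraries labelled Wnt1_KP6, 4.72, 4.65 and 4.53 FPKM in those labelled Wnt1 and 6.75, 5.51 and 4.95 FPKM in control libraries. It varied 1.49-fold over all 9 libraries, against 6.12-fold for CYP24A1 and 5.08-fold for CYP27B1. Its log2 fold change was -0.20 ± 0.13 in Wnt1 vs control (adjusted p = 0.607, edgeR). VDR itself was low, at 1.45 ± 0.472, 1.44 ± 0.275 and 1.93 ± 0.823 FPKM in libraries labelled Wnt1_KP6, labelled Wnt1 and control (SD, n = 3 each).

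CYP1B1 encodes an enzyme that oxidises estradiol and polycyclic aromatic hydrocarbons and is a target of the aryl hydrocarbon receptor AHR. The gene lies on chromosome 2 from 38066973 to 38109902 (hg38, minus strand). Its exons overlap CYP1B1-AS1, RMDN2 or RMDN2-AS1, with 12.9% of its exon bases on the opposite strand and 1.15% on the same strand. Reads of a partner on the opposite strand cannot be separated without strand, and strand does not separate those on the same strand. It had 52.1, 41.9 and 44.0 FPKM in the libraries labelled Wnt1_KP6, 44.1, 48.8 and 47.5 FPKM in those labelled Wnt1 and 105, 19.9 and 17.8 FPKM in control libraries. All 6 libraries with the Wnt1 label lay between control replicate 1 above and control replicates 2 and 3 below.

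CYP1B1 means were thus close, 46.0 ± 5.37, 46.8 ± 2.44 and 47.5 ± 49.6 FPKM in libraries labelled Wnt1_KP6, labelled Wnt1 and control (SD, n = 3 each), and the fold changes were 0.0050 ± 0.57 in Wnt1 vs control and 0.012 ± 0.57 for Wnt1_KP6 vs control. These standard errors leave room for a large difference in either direction. Within replicates 1, 2 and 3 the difference between Wnt1 and control was -1.20, 1.29 and 1.34 in log2 CPM. Without control replicate 1, edgeR gave 1.27 ± 0.12 in Wnt1 vs control (adjusted p = 0.000913) and 1.28 ± 0.12 for Wnt1_KP6 vs control (adjusted p = 0.000862). The fit to replicates 2 and 3 gave 1.31 ± 0.074 (adjusted p = 1.51e-08) and 1.19 ± 0.074 (adjusted p = 1.92e-08).

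CYP1A1 and CYP1A2, the other targets by which AHR activity is usually read, are neighbours on chromosome 15 with 23233 bases between them, CYP1A1 at 74719542 to 74725610 on the minus strand and CYP1A2 at 74748844 to 74756202 on the plus strand. CYP1A1 had 12, 16 and 9 counts in the libraries labelled Wnt1_KP6, 10, 12 and 16 in those labelled Wnt1 and 4, 32 and 37 in control libraries. CYP1A2 had 3, 8 and 5 counts in the libraries labelled Wnt1_KP6, 5, 14 and 8 in those labelled Wnt1 and 4, 30 and 38 in control libraries. Both were highest in control replicates 2 and 3 and low in control replicate 1, the order that CYP24A1 showed and CYP1B1 did not.

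CYP1A1 gave -0.78 ± 0.69 in Wnt1 vs control (adjusted p = 0.742) and -0.79 ± 0.69 for Wnt1_KP6 vs control (adjusted p = 0.645) with edgeR. Without replicate 1 the values were -1.06 ± 0.38 (adjusted p = 0.0498) and -1.23 ± 0.39 (adjusted p = 0.0221). CYP1A2 gave -1.22 ± 0.79 in Wnt1 vs control (adjusted p = 0.616) and -1.95 ± 0.83 for Wnt1_KP6 vs control (adjusted p = 0.301). For CYP1A2 without replicate 1 they were -1.37 ± 0.43 (adjusted p = 0.0256) and -2.14 ± 0.47 (adjusted p = 0.00259). Without control replicate 1 only, CYP1A2 passed for Wnt1_KP6 vs control at -2.46 ± 0.60 (adjusted p = 0.0428). Their coding sequences are alike, so low estimated counts of the pair are uncertain. These counts were whole numbers in every library, and a division of reads between the pair was not tested.

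Promoter windows of CYP1A1 (chr15:74725479-74725778, minus strand) and CYP1A2 (chr15:74748595-74748894, plus strand) are shown because the pair varied together across libraries (RefSeq, GRCh38.p14). Capitals mark GCGTG, the core letters that AHR recognises, in CYP1A1, and TATAAA, found on both strands in overlapping positions, in CYP1A2.
CYP1A1: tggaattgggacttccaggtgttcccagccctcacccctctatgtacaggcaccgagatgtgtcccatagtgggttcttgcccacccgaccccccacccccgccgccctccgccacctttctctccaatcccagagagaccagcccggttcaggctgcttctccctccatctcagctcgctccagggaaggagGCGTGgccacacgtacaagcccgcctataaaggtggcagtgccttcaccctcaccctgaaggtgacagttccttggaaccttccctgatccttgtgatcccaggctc
CYP1A2: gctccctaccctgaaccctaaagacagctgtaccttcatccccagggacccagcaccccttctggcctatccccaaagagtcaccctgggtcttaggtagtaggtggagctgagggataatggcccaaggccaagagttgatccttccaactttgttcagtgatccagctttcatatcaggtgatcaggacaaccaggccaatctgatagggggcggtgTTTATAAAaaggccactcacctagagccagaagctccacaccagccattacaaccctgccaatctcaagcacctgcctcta

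The pair of windows was 45.5% identical in 325 aligned columns, with no shared run of 12 bases. GCGTG, searched on both strands, occurred in 36.5% of all 35116 windows and in 7 of the 16 tested P450 genes with a window: CYP1A1, CYP20A1, CYP26C1, CYP2J2, CYP2U1, CYP2W1 and CYP4V2. TATAAA occurred in 11.5% of all windows and in 5 of the 16, CYP1A1, CYP1A2, CYP26A1, CYP26B1 and CYP26C1. For both motifs the first share is of windows and the second of genes, some with several windows. No match of GCGTG in the CYP1A2 window says only that these letters are not in these 300 bases.

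CYP2S1, an extrahepatic P450 also known as an AHR target, had 43, 29 and 26 counts in the libraries labelled Wnt1_KP6, 47, 26 and 26 in those labelled Wnt1 and 26, 58 and 69 in control libraries. Control replicates 2 and 3 were again the highest libraries. It gave -0.51 ± 0.40 in Wnt1 vs control (adjusted p = 0.701, edgeR) and -1.04 ± 0.28 in replicates 2 and 3 alone (adjusted p = 0.0116). CYP3A5, the main CYP3A form of kidney, had 0.928, 0.910 and 1.10 FPKM in the libraries labelled Wnt1_KP6, 0.980, 1.05 and 1.02 FPKM in those labelled Wnt1 and 0.881, 1.05 and 1.01 FPKM in control libraries. It varied least of the 21 tested genes, 1.25-fold over 9 libraries, and its log2 fold changes were 0.065 ± 0.18 in Wnt1 vs control and 0.015 ± 0.18 for Wnt1_KP6 vs Wnt1. CYP2W1, better known from tumours than from normal tissue, had 3 to 15 counts in the libraries labelled Wnt1_KP6, 5 to 15 in those labelled Wnt1 and 4 to 10 in control libraries, with a log2 fold change of 0.74 ± 0.64 in Wnt1 vs control (adjusted p = 0.734).

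The retinoid genes CYP26A1, CYP26B1 and CYP26C1 encode hydroxylases that break down retinoic acid. CYP26C1 had 75, 27 and 26 counts in the libraries labelled Wnt1_KP6, 71, 24 and 32 in those labelled Wnt1 and 66, 53 and 59 in control libraries, and replicate 1 was the highest in each group. CYP26A1, 3938 bases away on chromosome 10, had 30, 11 and 11 counts in the libraries labelled Wnt1_KP6, 28, 12 and 18 in those labelled Wnt1 and 16, 31 and 14 in control libraries. These neighbours share 18.9% (CYP26C1) and 25.2% (CYP26A1) of their exon bases with the gene AL358613.3 on the same strand, so their counts are uncertain. Fold changes in Wnt1 vs control were -0.38 ± 0.44 for CYP26C1 and 0.056 ± 0.49 for CYP26A1 on the log2 scale, neither past the threshold. CYP26B1 had 23, 26 and 30 counts in the libraries labelled Wnt1_KP6, 31, 21 and 25 in those labelled Wnt1 and 14, 22 and 25 in control libraries. By CPM its libraries labelled Wnt1 were all above the control libraries, by a log2 fold change of 0.47 ± 0.34 (adjusted p = 0.658, edgeR). CYP26C1 without replicate 1 gave -0.76 ± 0.28 in Wnt1 vs control (adjusted p = 0.0510) and -0.85 ± 0.28 for Wnt1_KP6 vs control (adjusted p = 0.0262).

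Among the bile acid and oxysterol genes, CYP27A1, the mitochondrial sterol hydroxylase, had 2.00, 3.05 and 2.72 FPKM in the libraries labelled Wnt1_KP6, 2.63, 3.71 and 2.80 FPKM in those labelled Wnt1 and 1.65, 2.66 and 2.25 FPKM in control libraries. The groups overlapped, and within each replicate number both groups with the Wnt1 label were above control. Its log2 fold change was 0.47 ± 0.28 in Wnt1 vs control (adjusted p = 0.571, edgeR). CYP7B1, which hydroxylates oxysterols, had 0.916, 1.63 and 1.69 FPKM in the libraries labelled Wnt1_KP6, 0.711, 1.73 and 1.60 FPKM in those labelled Wnt1 and 1.87, 1.93 and 1.72 FPKM in control libraries. Replicate 1 was low in both groups with the Wnt1 label and not in control. The value was -0.42 ± 0.35 in Wnt1 vs control (adjusted p = 0.721), and -0.11 ± 0.11 in replicates 2 and 3 alone.

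The orphan CYP20A1, whose substrate in the body is not known, had 4.14, 6.32 and 5.62 FPKM in the libraries labelled Wnt1_KP6, 4.56, 5.50 and 4.75 FPKM in those labelled Wnt1 and 5.67, 4.70 and 4.72 FPKM in control libraries. The 3 groups overlapped, with fold changes of 0.016 ± 0.16 in Wnt1 vs control and 0.097 ± 0.16 for Wnt1_KP6 vs Wnt1. CYP2D7 had 26, 32 and 33 counts in the libraries labelled Wnt1_KP6, 41, 15 and 31 in those labelled Wnt1 and 28, 19 and 38 in control libraries. Its log2 fold change was 0.15 ± 0.39 in Wnt1 vs control. It lies 9296 bases from its near copy CYP2D6, which had at most 3 counts, and reads could be divided between them. The counts of both were whole numbers in every library, and such a division was not tested.

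Overlap between libraries was counted on CPM by library total. The libraries labelled Wnt1 lay apart from the control libraries for 3 of the 21 genes, and all were higher: CYP26B1, CYP4F11 and CYP4F3 (background 16.5%). Those labelled Wnt1_KP6 lay apart from control for 3, CYP4F11 above and CYP2U1 and CYP7B1 below (background 17.8%). CYP7B1 lay apart by a narrow margin that the TMM-scaled log2 CPM did not keep, where Wnt1_KP6 minus control was -0.98, -0.13 and 0.063 in replicates 1, 2 and 3. They lay apart from those labelled Wnt1 for 2, CYP24A1 above and CYP2U1 below (background 6.93%). In 21 genes these counts are near the shares over all genes.

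**Figure D5:**
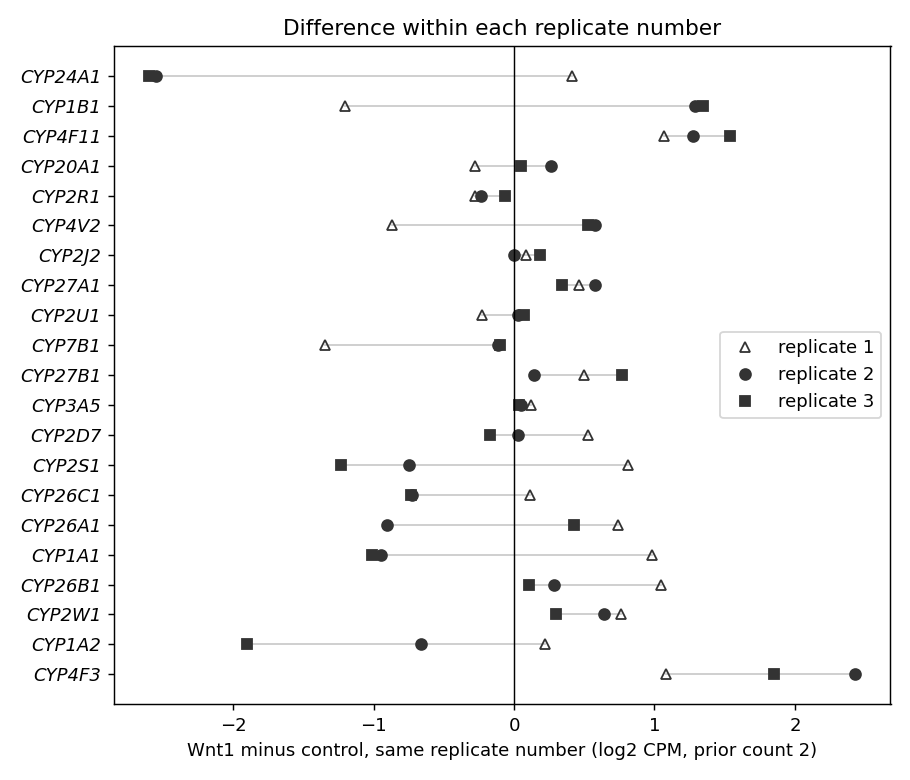
Difference in log2 CPM (prior count 2) between the Wnt1 and control libraries of the same replicate number, 1 row per tested P450 gene and 1 symbol per replicate number. CYP4F11 lies to the right of 0 in all 3 (1.07, 1.27 and 1.53), while replicate 1 lies across 0 from replicates 2 and 3 for CYP24A1, CYP1B1, CYP4V2, CYP2S1, CYP1A1, CYP1A2, CYP26C1, CYP20A1 and CYP2U1.

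In replicates 2 and 3 alone, edgeR called 8 of the 20 P450 genes it could test in Wnt1 vs control (background 31.6%): CYP1B1, CYP4F11, CYP4F3 and CYP4V2 were higher and CYP1A1, CYP1A2, CYP2S1 and CYP24A1 lower. It called 9 for Wnt1_KP6 vs control (background 40.6%): CYP1B1, CYP27B1, CYP4F11 and CYP4V2 were higher and CYP1A1, CYP1A2, CYP24A1, CYP26C1 and CYP2S1 lower. It called CYP24A1 alone for Wnt1_KP6 vs Wnt1 (background 8.62%). In replicate 1 the difference between Wnt1 and control had the opposite sign to that in replicates 2 and 3 for 9 of the 21 genes: CYP24A1, CYP1B1, CYP4V2, CYP1A1, CYP1A2, CYP2S1, CYP26C1, CYP20A1 and CYP2U1. Such signs were not counted over all tested genes, so the 9 are not read as a trait of the family. The shares called among the P450 genes were near those over all genes in this fit. What sets replicate 1 apart was not tested.

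The genes that supply, steer or follow P450 enzymes were read in 8 lists with 87 tested genes of 114. In the edgeR fit to all libraries with no block, 0 of the 87 were called in any of the 3 comparisons. An unadjusted p under 0.05 was found for 14 in Wnt1 vs control, all higher (background 11.2% for either direction). Such a p was found for 3 between Wnt1_KP6 and Wnt1 (background 2.76%) and for 19 between Wnt1_KP6 and control (background 15.8%). DESeq2 called 4 in Wnt1 vs control (DHCR7, HMOX1, MGST1 and NR1H3, background 2.3%), 0 for Wnt1_KP6 vs Wnt1 (background 0.152%) and 6 for Wnt1_KP6 vs control (the same 4 with POR and PTGER4, background 5.12%), all higher. Over all genes DESeq2 called 202 higher and 100 lower in Wnt1 vs control, and 470 higher and 204 lower for Wnt1_KP6 vs control. The direction is therefore not read as a trait of the lists. With the replicate number as a block, edgeR called 1, RDH10, which oxidises retinol, higher for Wnt1_KP6 vs control (background 1.13%), and 0 in the other comparisons. In replicates 2 and 3 alone it called 27 higher and 11 lower of 86 in Wnt1 vs control (background 31.6%), 5 higher and 1 lower for Wnt1_KP6 vs Wnt1 (background 8.62%) and 31 higher and 19 lower for Wnt1_KP6 vs control (background 40.6%).

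Of 11 tested redox partners, CYB5R3 (114 ± 41.9, 118 ± 30.6 and 129 ± 16.3 FPKM), CYB5B (96.4 ± 7.53, 103 ± 2.47 and 86.8 ± 43.2 FPKM) and PGRMC1 (66.5 ± 4.33, 69.6 ± 4.84 and 59.3 ± 11.2 FPKM) were highest, in libraries labelled Wnt1_KP6, labelled Wnt1 and control (SD, n = 3 each). POR, the electron donor of microsomal P450 enzymes, had 43.3, 38.3 and 30.8 FPKM in the libraries labelled Wnt1_KP6, 46.4, 33.8 and 35.6 FPKM in those labelled Wnt1 and 34.6, 16.5 and 17.9 FPKM in control libraries. Its log2 fold change was 0.74 ± 0.23 for Wnt1_KP6 vs control (edgeR adjusted p = 0.169). In each library POR was above every P450 gene other than CYP24A1 and CYP1B1.

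Of 12 tested heme genes, HMOX1, which breaks heme down, was highest on average, at 220.3 ± 88.0, 266 ± 109 and 38.7 ± 21.3 FPKM in the same order of groups. It gave 2.83 ± 0.53 in Wnt1 vs control (adjusted p = 0.114, edgeR) and 2.62 ± 0.52 for Wnt1_KP6 vs control (adjusted p = 0.0766). HMOX1 had 120, 286 and 254 FPKM in replicates 1, 2 and 3 labelled Wnt1_KP6 and 141, 341 and 316 FPKM labelled Wnt1. In control libraries it had 63.2, 25.0 and 27.8 FPKM. UROD, a step of heme synthesis, had 59.1 ± 2.17, 62.7 ± 2.75 and 64.9 ± 8.31 FPKM, and BLVRB, which reduces biliverdin, 62.6 ± 8.32, 65.4 ± 6.02 and 54.1 ± 5.31 FPKM. Neither passed the threshold in any comparison.

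The AHR pathway list (8 tested) was led by NQO1 at 379 ± 9.59, 398 ± 25.7 and 324 ± 19.9 FPKM, NFE2L2 at 224 ± 107, 140 ± 27.2 and 143 ± 18.0 FPKM and TIPARP at 52.7 ± 30.5, 25.8 ± 3.997 and 27.4 ± 10.5 FPKM. AHR itself had 9.01 ± 1.69, 7.23 ± 0.312 and 6.62 ± 1.22 FPKM. Among 15 tested nuclear receptors and regulators, CEBPB (90.1 ± 15.9, 81.6 ± 20.6 and 61.4 ± 34.8 FPKM) and NR1H2 (18.2 ± 0.567, 18.0 ± 0.724 and 16.5 ± 2.12 FPKM) were among the highest. Neither was called with edgeR.

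Conjugating enzymes (19 tested) were led by GSTP1 at 747 ± 93.9, 752 ± 118 and 849 ± 184 FPKM, MGST1 at 375 ± 28.5, 399 ± 44.3 and 291 ± 19.1 FPKM and MGST3 at 105 ± 18.8, 109 ± 15.2 and 102 ± 14.5 FPKM. Retinoid handling (9 tested) was led by RDH11 (50.7 ± 2.96, 51.6 ± 4.46 and 32.6 ± 13.7 FPKM), ALDH1A3, which makes retinoic acid (19.8 ± 11.7, 16.8 ± 9.19 and 24.7 ± 17.2 FPKM), and DHRS3 (17.0 ± 15.9, 17.3 ± 13.8 and 18.2 ± 21.8 FPKM). Control replicates 1, 2 and 3 had 4.78, 34.6 and 34.6 FPKM of ALDH1A3 and 43.3, 5.5 and 5.7 FPKM of DHRS3. In every group replicate 1 was the lowest for ALDH1A3 and the highest for DHRS3. Vitamin D handling (4 tested) was led by DHCR7, which removes the precursor of vitamin D, at 130.1 ± 19.7, 138 ± 23.0 and 55.7 ± 33.9 FPKM, and RXRA, the partner of VDR, at 17.4 ± 1.09, 18.4 ± 0.549 and 16.5 ± 1.59 FPKM. Eicosanoid genes outside the P450 family (12 tested) were led by PTGES3 at 253 ± 1.77, 261 ± 12.3 and 277 ± 24.3 FPKM, LTA4H at 45.8 ± 1.89, 43.6 ± 0.641 and 47.1 ± 6.38 FPKM and PTGES2 at 44.6 ± 13.1, 48.7 ± 8.99 and 48.0 ± 5.74 FPKM. All means in these lists follow the order Wnt1_KP6, Wnt1, control.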

How the data were processed

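The 9 HKC-8 poly(A) RNA libraries were grouped by their treatment label, 3 per group, with replicate numbers from the titles. Per the submitters' processing notes, the build was hg38 and the tools were RSEM, HISAT2, StringTie 1.3.1, Bowtie2 2.2.8 and fastp 0.18.0. What each did, with which annotation, filters and strand handling, was not given in the sources used here. Per the file headers, the authors deposited an expected count and an FPKM value, scaled by them to length and library size, for 20323 genes. Expected counts are estimates that need not be whole, and 494 of the 495 values of the 55 members lay within 1e-06 of a whole number.

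FPKM per CPM of a member varied between libraries by up to 2.46-fold (CYP26B1), so low genes are given as counts or CPM (counts over library total, also used for overlap; differences within a replicate use edgeR's TMM-scaled log2 CPM). Counts were rounded and filtered with filterByExpr (minimum count 10, minimum total 15). edgeR 4.0.16 in R 4.3.3 fitted TMM-scaled counts of all 9 libraries with 3 group means, a robust quasi-likelihood test (two-sided) and Benjamini-Hochberg adjustment over 13153 genes at 0.05. The SE is that of the log2 fold change in this fit. DESeq2 1.42.0 and limma 3.58.1 were alternatives. No pair of libraries agreed within sampling noise. Same-numbered libraries deviated together from their group means, with r across genes of 0.11 to 0.67 in all 9 pairs. In 18 pairs with different numbers r was -0.55 to 0.40. These values set replicate 1 apart but do not pair numbers 2 and 3. Wnt1 replicate 2 gave 0.41 with Wnt1_KP6 replicate 2 and 0.40 with Wnt1_KP6 replicate 3. Control replicate 3 gave 0.25 with Wnt1_KP6 replicate 2 and 0.11 with Wnt1_KP6 replicate 3. A fit with the replicate number as a block was run beside the fit above. Its pairing of numbers 2 and 3, and that of differences within a replicate, rests on the titles alone.

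Coordinates (1-based), gene types and exon overlaps come from GENCODE 29 on GRCh38, and promoter windows from RefSeq, where 38 of the 55 members had an entry. The floor of 3 counts covers counting error only, whereas each ± value is an SD or SE that also holds the spread between libraries. The members and all lists were chosen with earlier results of these data known. Every tested member is named, and of each list the 3 genes with the highest mean FPKM and any called. Of the list genes and the untested members, 1 each is not reported here. POR, AHR, VDR and the genes that DESeq2 or the block fit called were named after their values were seen.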

Additional observations from a re-analysis of the deposited data

How the results depend on the processing

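RLE size factors kept every call and direction of the 21 tested P450 genes, and the choice of scaling did not change their number called. DESeq2 called 302, 20 and 674 of all genes and 2, 0 and 1 P450 genes in Wnt1 vs control, Wnt1_KP6 vs Wnt1 and Wnt1_KP6 vs control. The replicate block called 95, 0 and 149 of all genes, added CYP4F11 in Wnt1_KP6 vs control (1 P450 gene) and changed no other P450 call, while CYP1A1 (0.040) and CYP1B1 (-0.040) changed sign in Wnt1_KP6 vs Wnt1. Fits of only the 2 groups compared called 9, 0 and 0 of all genes. No filter on low counts called 1 P450 gene in Wnt1_KP6 vs control, CYP4F11. limma on log2(FPKM + 0.1) called 19 and on log2(FPKM + 1) called 11 of all genes in Wnt1_KP6 vs control. Replicates 2 and 3 alone called 4115, 1124 and 5293 of all genes and 8, 1 and 9 P450 genes in the same order. The cause of these differences was not tested.

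CYP4F11 in Wnt1 vs control, the 1 call of the fit described above, kept its sign under all alternatives. The signs that changed on log2(FPKM + 0.1) and log2(FPKM + 1) were those of CYP20A1 in Wnt1 vs control (-0.025 and -0.021), CYP3A5 in Wnt1_KP6 vs control (-0.0024 and -0.0011) and, in Wnt1_KP6 vs Wnt1, CYP1B1 (-0.029 and -0.028), CYP26B1 (-0.13 and -0.037), CYP2D7 (-0.018 and -0.034), CYP2S1 (-0.054 and -0.020), CYP3A5 (-0.056 and -0.030), CYP4V2 (-0.031 and -0.028) and, with 1 only, CYP4F3 (0.0046). In replicates 2 and 3 alone they were CYP26A1 (-0.34), CYP2D7 (-0.082) and CYP2U1 (0.049) in Wnt1 vs control, CYP1B1 (-0.12), CYP26C1 (-0.091) and CYP4V2 (-0.048) in Wnt1_KP6 vs Wnt1 and CYP2R1 (0.014) in Wnt1_KP6 vs control.

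Leaving out 1 library called 0 to 879, 0 to 214 and 0 to 1198 of all genes in the same order of comparisons, and 0 to 3, 0 and 0 to 4 P450 genes. The most came without control replicate 1 in the comparisons with control and without Wnt1_KP6 replicate 1 in Wnt1_KP6 vs Wnt1. Log2 fold changes whose sign changed ran as follows. In Wnt1 vs control they were CYP1B1 -0.37 to 1.27, CYP20A1 -0.080 to 0.10, CYP26A1 -0.17 to 0.49, CYP2D7 -0.076 to 0.46, CYP2J2 -0.043 to 0.23, CYP2U1 -0.14 to 0.059, CYP3A5 -0.015 to 0.12 and CYP4V2 -0.15 to 0.41. In Wnt1_KP6 vs Wnt1 they were CYP1A1 -0.26 to 0.20, CYP1B1 -0.076 to 0.079, CYP20A1 -0.035 to 0.23, CYP26A1 -0.67 to 0.13, CYP26B1 -0.035 to 0.24, CYP26C1 -0.52 to 0.52, CYP27A1 -0.28 to 0.11, CYP2D7 -0.081 to 0.37, CYP2S1 -0.14 to 0.25, CYP2W1 -0.76 to 0.15, CYP3A5 -0.11 to 0.12, CYP4F11 -0.30 to 0.0016, CYP4V2 -0.13 to 0.12 and CYP7B1 -0.18 to 0.39. In Wnt1_KP6 vs control they were CYP1B1 -0.37 to 1.28, CYP20A1 -0.024 to 0.25, CYP26A1 -0.62 to 0.39, CYP2W1 -0.014 to 0.88, CYP3A5 -0.046 to 0.18 and CYP4V2 -0.14 to 0.42. Genes with few counts, such as CYP1A2, CYP4F3 and CYP2W1, had standard errors of 0.57 or more. So did CYP1B1, at 0.57 with 2399 to 14420 counts in a library.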
